A study of Danio rerio with 17 samples.

Results

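The genes described here encode the protein synthesis machinery: ribosomal proteins of the cytosol and of mitochondria, factors that assemble ribosomes in the nucleolus, and the initiation, elongation and termination factors of translation. They were chosen by gene name (symbols that begin with rpl, rps, rplp, rpsa, mrpl, mrps, eif, eef, etf1, utp, nop, nol, rrp, wdr12 or bop1, each followed by its number where it has one, without the rps6k kinases), and not by their values. Earlier results of these data were known when the rule was chosen. The name rule found 90 genes among the 4169 listed in either of the study's RNA tables. Of these, 36 were in the prdm3 table, 63 in the prdm16 table and 9 in both. The annotation of the zebrafish holds 282 protein-coding genes that match the same rule. The unlisted ones have no value in the tables, since each table holds only genes that passed the authors' threshold.

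RNA was sequenced from cranial neural crest, a migratory population of the embryo that builds most of the facial skeleton and also gives pigment cells and glia. The cells were sorted by their sox10:GFP reporter at 48 hours post fertilization, each library from pooled embryos, and the reporter was shared by all groups. The groups were wild type, prdm3-/- and prdm16-/-. The wild type library labels name prdm3 for replicates 1 and 2 and prdm16 for replicate 3, and each comparison mixes both. Prdm3 and Prdm16 are related zinc finger proteins with a PR domain, and the labels name no allele and do not say whether the wild type embryos were siblings of the mutants. The prdm3 table holds 2 wild type libraries (replicates 2 and 3) and 3 mutant libraries. The prdm16 table holds 3 wild type libraries (replicates 1 to 3) and 2 mutant libraries (replicates 1 and 2), so both comparisons share wild type replicates 2 and 3. Nothing says that the libraries of a group came from separate clutches, so p-values measure the spread between these libraries, which may be technical.

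A ribosome has a small subunit that reads the mRNA and a large subunit that joins amino acids, and its assembly starts in the nucleolus on the ribosomal RNA precursor. Initiation factors bring the small subunit and the first tRNA to the start codon, elongation factors deliver tRNAs and move the ribosome along, and mitochondria keep a ribosome of their own for a few proteins of the respiratory chain. Neural crest is known for its sensitivity to ribosome assembly defects, and human mutations in ribosomal RNA transcription and processing genes cause syndromes of the facial skeleton. The roles of single genes below are given as known from yeast and human cells.

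Levels are FPKM, fragment counts scaled to transcript length and to sequencing depth, which can be compared between genes. Differences were computed from log2(FPKM + 1), so that changes of weakly expressed genes come out too small, and folds are ratios of mean FPKM. Read depth is unknown, and in bulk RNA fewer cells of a type and less RNA per cell cannot be told apart. Reads of genes with near-identical copies, such as the eef1a1 genes and some ribosomal protein genes, may have been split between copies in the authors' counting, and strand is not stated. The 2 Prdm genes themselves and sox10 are not among the listed genes and are not analysed here. Of 18 neural crest and arch markers, hand2 and prrx1a were above 0 in every library of the prdm3 table, and barx1, tfap2b and foxd3 were above 0 in every wild type library of the prdm16 table. In the prdm16 mutants tfap2b and foxd3 were listed at 0 and barx1 at 2.01 and 0 FPKM. These markers have values there only because they passed the contrast, where 2912 of 2990 rows were lower. The unlisted markers have no value, so neural crest identity in those 2 libraries could not be checked. Rows at 0 numbered 15 to 23 of 1520 in the prdm3 mutants and 2626 and 2775 of 2990 in the prdm16 mutants, against 0 to 6 in the wild type libraries. A value of exactly 0 for genes that every cell uses can be a failed estimate, so a gene at 0 in a library is called listed at 0 and gets no fold.

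In the prdm3 mutants 33 members were listed higher and 3 lower, and in the prdm16 mutants 5 were listed higher and 58 lower. Of the 282 annotated genes, 11.7% were listed higher and 1.06% lower in the prdm3 table. The background was close to this: among all 11242 genes tested, 13.5% were listed, 12.7% higher and 0.783% lower. For the prdm16 table the shares of annotated genes were 1.77% higher and 20.6% lower, against 0.734% and 27.4% of 10623 genes tested, with 28.1% listed in all. Higher genes thus prevailed in the prdm3 table and lower genes in the prdm16 table among all genes tested as well, and the members' share in the prevailing direction was below the background in each table, with the limit that unexpressed genes count among the 282 but not among the genes tested. Listing is set by the same contrast, so all 36 and all 63 listed members had groups that did not overlap, and nothing is read from that.

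**Figure D1:**
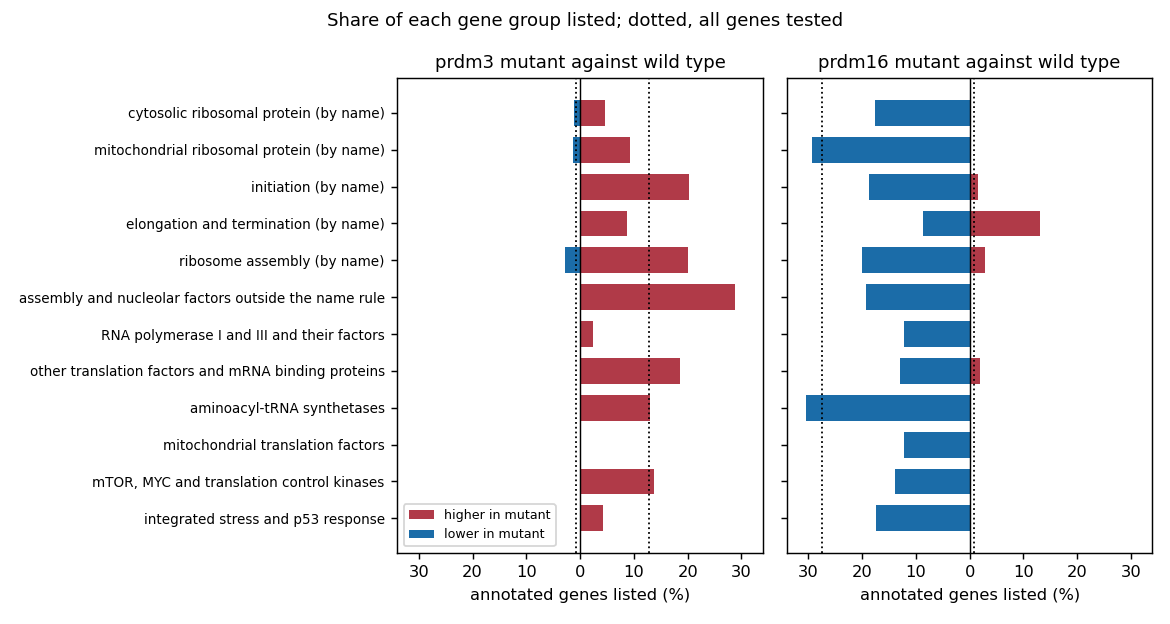
Share of annotated genes (percent, horizontal axis) listed higher (red) or lower (blue) in the prdm3 and prdm16 tables, for the 5 classes of members (by name) and the 7 lists of other genes described last, with the share of all genes tested as dotted lines. Among members of the prdm3 table, initiation (20.3%) and ribosome assembly (20%) have the longest bars for higher genes and cytosolic ribosomal proteins the shortest (4.71%). In the prdm16 table the longest bar of members is that of lower mitochondrial ribosomal proteins (29.3%).

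In the prdm3 comparison the classes differed in how many members were listed. Initiation factors had 13 of 64 annotated genes listed higher (20.3%) and ribosome assembly factors 7 of 35 (20%). Mitochondrial ribosomal proteins had 7 of 75 (9.33%), elongation and termination factors 2 of 23 (8.70%), and cytosolic ribosomal proteins 4 of 85 (4.71%). Among all genes tested 12.7% were listed higher, and the differences between classes were not tested. Genes entered the prdm3 table at an unadjusted p below 0.05. The authors' deposited table gives a q below 0.05 to only 1 member, utp18, and to 0.0267% of all genes tested. The q of the other 35 members lay between 0.239 and 0.368 in the authors' deposited table, so none of them passed a corrected test. The median listed row, taken over the 1487 rows above 0 in every library, was itself higher in the mutants, by 1.71-fold (0.78 on the log2 scale). That median comes from rows that passed the same contrast, 1424 of 1487 of them higher, so the selection sets much of it. A higher member that turns lower relative to it rose less than that median, which many must by construction. Such a turn does not show that the member was unchanged or lower. The members' median fold among rows above 0 was 1.72, against 1.73 for all listed rows, and relative to the median listed row 15 of the 33 higher members turned lower. Only 3 members kept their call as higher on that relative scale, eif3f, mrps18b and rrp9.

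Initiation factors gave the longest list, and all 13 were listed higher, although 6 of the 13 turned lower relative to the median listed row. Of all 1520 listed rows 1432 were higher, so the shared direction is not read as a result. The lead was eif3f (ENSDARG00000077533), a subunit of eIF3, the large complex that binds the small ribosomal subunit and recruits mRNA. Its FPKM was 1.06 and 1.19 in wild type and 4.67, 3.88 and 3.86 in the mutants. The mutant mean was 3.68-fold higher, a log2 difference of 1.27 ± 0.099 (SE), with p = 0.00103 but q = 0.239 in the authors' deposited table. All 3 mutant libraries of eif3f were more than 3 times as high as either wild type library, a gap that comes with its selection by p.

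The next by p were eif3ja and eif3ba, further eIF3 subunits, and eif4g1a, the scaffold that joins the cap-binding protein to eIF3. For eif3ja (ENSDARG00000012603) FPKM was 7.09 and 7.55 in wild type and 18.1, 15.4 and 14.6 in the mutants, a 2.19-fold higher mean (p = 0.00307 in the authors' deposited table). For eif3ba (ENSDARG00000059654) it was 13.4 and 15.1 against 23.9, 27.5 and 25.1, 1.79-fold (p = 0.00365 in the authors' deposited table). For eif4g1a (ENSDARG00000006200) it was 19.97 and 20.7 against 26.7, 28.2 and 29.5, 1.38-fold (p = 0.00378 in the authors' deposited table), a log2 difference that became -0.30 relative to the median listed row. In each of the 3 genes the wild type libraries differed by far less than the distance to the lowest mutant library. The genes were picked by their small p, so this gap comes with the selection and is no further evidence.

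Of 16 annotated eIF3 genes 6 were listed, all higher, at 1.25-fold to 3.68-fold, and 3 of these 6 (eif3ha, eif3s10 and eif3c) turned lower relative to the median listed row. This grouping was chosen after the values were seen. Among all genes tested 12.7% were listed higher, and 1432 of 1520 listed rows were higher. The count and its direction are therefore not read as a result about eIF3. The low eif3f stood apart in level: the wild type mean of the 6 ran from 1.12 FPKM for eif3f to 55.0 for eif3c, although their products are parts of a single complex. Other listed initiation genes included eif5, which triggers GTP hydrolysis by eIF2 at the start codon, at 10.7 and 10.8 FPKM in wild type and 26.4, 21.5 and 28.0 in the mutants. Another was eif4ebp2, whose product binds eIF4E and inhibits cap-dependent initiation, at 17.8 and 19.5 against 30.8, 45.8 and 41.0. So a gene for an inhibitor of initiation was listed higher beside genes for initiation factors. The eif4h gene, whose product aids the eIF4A helicase, was at 8.6 and 9.23 against 15.8, 19.8 and 18.7. The remaining genes of the class were eif2d, eif2s3 and eif4g2a, and with eif5, eif4ebp2 and eif4h they were 1.43-fold to 2.36-fold higher.

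Ribosome assembly held both the clearest lower gene and a set of higher ones. The lower one was utp18 (ENSDARG00000102618), a component of the small subunit processome, the particle that cuts the ribosomal RNA precursor. It was at 1.54 and 1.51 FPKM in wild type and listed at 0 in all 3 mutant libraries, with q = 0.00314 in the authors' deposited table. Its low p rests on 2 nearly equal wild type values and on 3 exact zeros, and its level was low in wild type.

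There were 7 assembly genes listed higher, of which 4 (nop58, bop1, nop56 and nol10) turned lower relative to the median listed row. Nop58 and Nop56 are core proteins of the box C/D particles that guide methylation of ribosomal RNA. For nop58 (ENSDARG00000104353) FPKM was 13.8 and 13.1 in wild type and 23.3, 21.8 and 20.5 in the mutants, 1.63-fold, a log2 difference of 0.66 ± 0.070 (SE, p = 0.00251 in the authors' deposited table). For nop56 it was 27.5 and 31.5 against 35.6, 36.7 and 36.1, 1.23-fold (p = 0.0279 in the authors' deposited table). The call of nop56 was lost under limma over the listed rows, and whether the genes differed from each other in their change was not tested. The gene rrp9 (ENSDARG00000041991), for a protein of the U3 particle, was at 0.423 and 0.684 FPKM in wild type and 1.95, 2.22 and 1.86 in the mutants, 3.64-fold (p = 0.00338 in the authors' deposited table). For nol8 (ENSDARG00000044143), a nucleolar gene, FPKM was 1.90 and 2.24 against 3.61, 3.92 and 3.95, 1.85-fold (p = 0.00295 in the authors' deposited table). For bop1 (ENSDARG00000063627), needed for the large subunit, it was 5.15 and 4.73 against 8.07, 9.64 and 7.63, 1.71-fold (p = 0.0127 in the authors' deposited table). These 3 genes had levels under 10 FPKM in every library. The largest positive log2 difference of the class was that of nop2, a methyltransferase of the large subunit RNA, at 4.11 and 4.57 FPKM against 8.10, 12.3 and 9.71, a difference of 1.03 ± 0.21 (SE).

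Few cytosolic ribosomal proteins were listed in the prdm3 table, 4 higher, of which 3 turned lower relative to the median listed row, and 1 lower. For rpl3 (ENSDARG00000003599), a protein near the catalytic centre of the large subunit, FPKM was 405 and 428 in wild type and 476, 493 and 499 in the mutants. This was 1.17-fold, the smallest fold of the 33 higher members (p = 0.00963 in the authors' deposited table). The rpl7l1 gene (ENSDARG00000042864), for a protein like Rpl7, is in this class by its name alone. It was at 9.86 and 10.8 FPKM against 14.7, 15.2 and 14.3, 1.43-fold (p = 0.00296 in the authors' deposited table). The large subunit genes rpl36a and rpl12 were listed higher by 1.53-fold and 1.82-fold. Values of rpl12 spread widely among the mutants, at 49.6, 66.2 and 78.1 FPKM against 36.5 and 34.7 in wild type (p = 0.0440 in the authors' deposited table). For rps13 (ENSDARG00000036298), of the small subunit, FPKM was 36.8 and 40.3 in wild type and 34, 32.1 and 31.2 in the mutants, so it was listed lower (p = 0.0341 in the authors' deposited table). Under limma over the listed rows the calls of rpl3 and rps13 were lost, with all 5 libraries and without any 1 of them.

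Mitochondrial ribosomal proteins were low in level, and their 7 higher genes kept their sign relative to the median listed row, where only mrps18b kept its call and mrps2 (0.0089), mrpl2 (0.071) and mrpl37 (0.11) had log2 differences near 0. For mrps18b (ENSDARG00000007065), of the small subunit, FPKM was 0.795 and 1.19 in wild type and 3.40, 3.35 and 3.00 in the mutants, 3.27-fold, with a log2 difference of 1.1 ± 0.12 (SE, p = 0.00288 in the authors' deposited table). For mrps23 it was 1.51 and 0.674 against 6.0, 3.13 and 3.91, 3.98-fold (p = 0.0337 in the authors' deposited table). The fold of mrps23 was the largest among the 33 higher members and rests on wild type values that differed by more than a factor of 2. For mrpl37, of the large subunit, FPKM was 3.17 and 4.73 against 8.21, 6.36 and 7.37, and for mrps2 it was 1.71 and 1.20 against 2.83, 2.32 and 2.32. The other 3 higher genes, mrpl2, mrpl28 and mrpl34, were 1.83-fold, 3.20-fold and 3.84-fold higher. Against these 7 stood mrpl13 (ENSDARG00000056903), at 4.47 and 3.27 FPKM in wild type and 1.34, 2.20 and 0.925 in the mutants. Its log2 difference was -0.99 ± 0.31 (SE), with p = 0.0479 in the authors' deposited table.

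Elongation factors had the highest levels of all members and small differences, and both listed genes turned lower relative to the median listed row. The eef2b gene, for the factor that moves the ribosome by a codon, was at 721 and 682 FPKM in wild type and 841, 931 and 849 in the mutants, 1.25-fold. The eef1a1l1 gene, for the factor that delivers tRNAs, was at 1088 and 1172 FPKM against 1346, 1726 and 1596, 1.38-fold. Their p values in the authors' deposited table were 0.0183 and 0.0494.

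**Figure D2:**
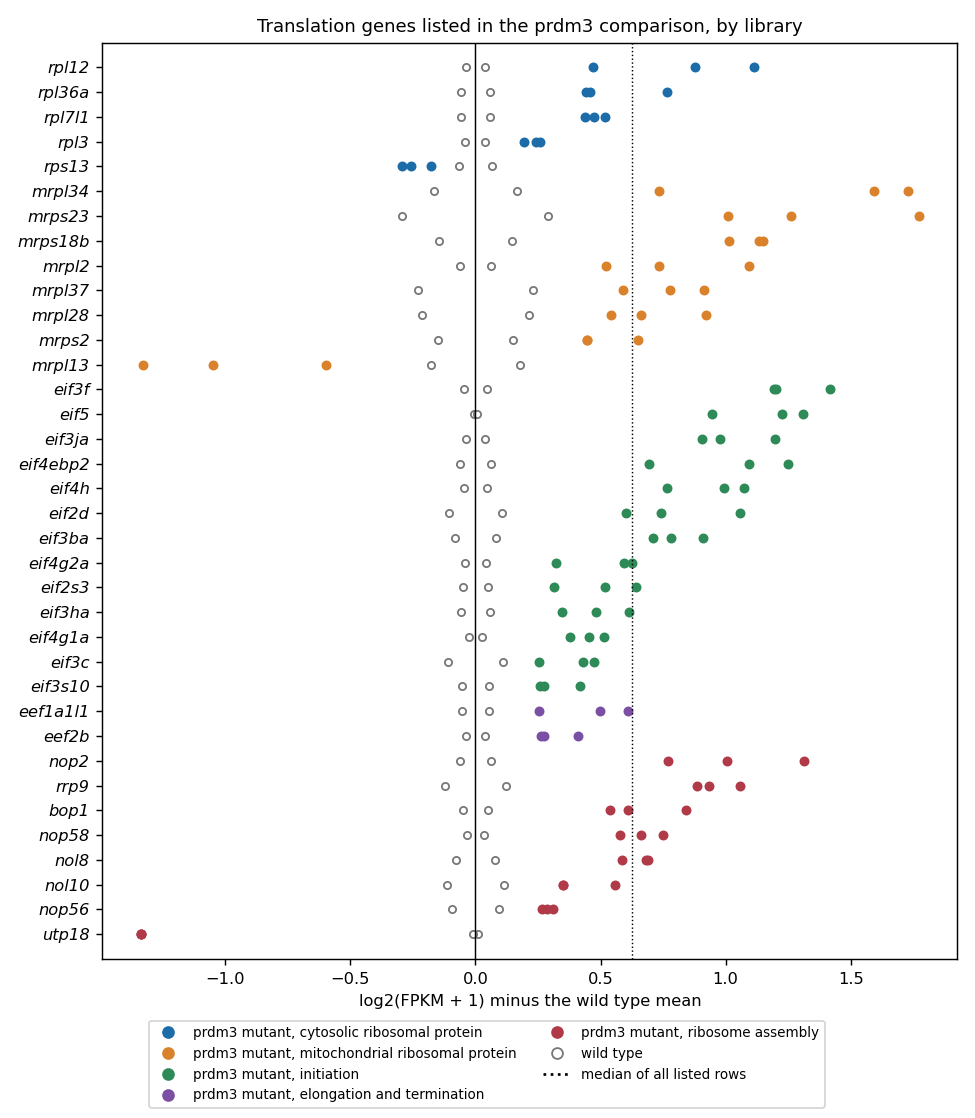
All 36 members listed in the prdm3 table, each row a gene and each point a library, as log2(FPKM + 1) minus the wild type mean of that gene. Open circles are the 2 wild type and filled circles the 3 mutant libraries, coloured by class, and the dotted line marks the median log2 difference of listed rows above 0 in every library (0.62). Points of 33 genes lie to the right of wild type and those of rps13, mrpl13 and utp18 to the left, but in 15 of the 33 the difference turned negative once each library was divided by its median listed row, a scaling that the dotted line does not show.

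Mutant replicate 2, the prdm3 mutant library whose label holds the word cleaned, was the highest mutant library in 19 of the 33 higher members (57.6%), against 43.1% of all 1432 higher rows. Without it, 5 members lost their call under limma over the listed rows, against 3 with all 5 libraries. Some markers of other cell types were listed in the same table. Of 48 markers in 6 lists, 4 were listed higher (dct and tyrp1b of pigment cells, oc90 of the otic vesicle and krt91 of epidermis) and 2 lower (sncb of neurons and tnnt3a of muscle). Among all genes tested 13.5% were listed, 12.7% higher and 0.783% lower, so these counts are not read as a result about the markers. The 2 listed pigment genes of 9 summed to 6.53 and 14.8 FPKM in wild type and 24.7 to 32.9 in the mutants. The listed otic gene of 5 ranged from 0.268 to 0.425 in wild type and from 0.877 to 1.42 in the mutants, and the epidermis gene of 8 from 1.55 to 2.41 and from 4.62 to 6.40. The neuron gene of 11 ranged from 1.78 to 2.36 FPKM in wild type and from 0 to 0.644 in the mutants, the muscle gene of 7 from 1.27 to 1.47 and from 0 to 0.591, and no blood or endothelium marker of 8 was listed. Of the 18 neural crest markers, hand2 (1.78-fold) and prrx1a (1.46-fold) were listed higher, 1 of the 2 turning lower relative to the median listed row, and they summed to 32.4 and 37.0 FPKM in wild type and to 53.8 to 54.9 in the mutants. The part of these markers in the differences of translation genes was not tested.

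In the prdm16 comparison most members were listed at 0 in the mutants. Of the 63 listed members, which all have a q below 0.05 in the authors' deposited table, 47 were at 0 in both mutant libraries, 6 at 0 in 1 of them and 10 above 0 in all 5 libraries. The 10 were split evenly, 5 higher and 5 lower. Exact zeros were the rule in the whole table, with 2540 of 2990 rows at 0 in both mutants. The mean wild type level of the 47 had a median of 3.88 FPKM, against a median of 2.99 in the 2540. The median of the 128 rows above 0 in every library was 2.05-fold higher in the mutants (1.03 on the log2 scale). For this comparison the median listed row means that median, since 2540 of 2990 rows were at 0 in both mutants. Of these 128 rows 77 were higher and 51 lower, and they too were selected by the contrast.

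Among members with values in every library, 3 genes of elongation and 1 of initiation rose. Of these, eef1a1l1 turned lower relative to the median of the 128 rows above 0 in every library. The 3 elongation genes were 13.0% of the 23 elongation and termination genes, beside 8.70% that fell or were listed at 0, against 0.734% higher and 27.4% lower of all genes tested. Their wild type means were 70.0 (eef1g), 105 (eif5a) and 1159 FPKM (eef1a1l1), against a median of 3.20 among all listed rows. The shares were not matched for level, so nothing is read from them. For eef1g (ENSDARG00000056119), a subunit of the exchange factor that reloads eEF1A with GTP, FPKM was 71.8, 68.0 and 70.2 in wild type and 224 and 185 in the mutants. It rose 2.93-fold, by 1.53 ± 0.11 (SE) on the log2 scale (q = 0.0110 in the authors' deposited table). For eif5a (ENSDARG00000017235), which helps the ribosome past difficult peptide bonds and carries the amino acid hypusine, FPKM was 102, 95.3 and 119 in wild type and 239 and 384 in the mutants. The rise was 2.96-fold (q = 0.0460 in the authors' deposited table), and the mutant libraries differed widely from each other. For eef1a1l1 (ENSDARG00000020850) FPKM was 1218, 1088 and 1172 against 1592 and 1619, a 1.38-fold rise (q = 0.0257 in the authors' deposited table) whose log2 difference became -0.56 relative to the median listed row. The call of eef1a1l1 was lost under limma over the listed rows. For eif4g2a (ENSDARG00000020377), a relative of eIF4G that lacks the cap-binding partner site, FPKM was 13.1, 9.62 and 10.2 against 29.6 and 45.2, a 3.41-fold rise (q = 0.0374 in the authors' deposited table). All 4 genes were higher in both mutants than in any wild type library, but no groups overlapped in any of the 63 listed members, so nothing is read from that.

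The largest rise was in ribosome assembly. The gene utp15 (ENSDARG00000002720), for another component of the small subunit processome, was at 2.45, 1.78 and 2.84 FPKM in wild type and 21.5 and 35.2 in the mutants. It rose 12-fold, by 3.10 ± 0.31 (SE) on the log2 scale (q = 0.0169 in the authors' deposited table). It was also the 1 member of the 5 that kept its call as higher relative to the median listed row. The other 7 listed assembly genes were lower (20% of 35, below the 27.4% of all genes tested). Of the 7, 6 were at 0 in both mutants. The highest of these in wild type was rrp15, a large subunit assembly gene, at 17.9, 11.2 and 9.58 FPKM. The smallest q of all members was that of rrp1 (ENSDARG00000103337), also for the large subunit, at 7.93, 7.53 and 8.06 FPKM in wild type and 0 in both mutants (q = 0.00134 in the authors' deposited table). For utp23 the wild type values were 9.11, 7.0 and 4.42 FPKM, and for utp3 they were 2.19, 3.42 and 2.23. Both code for small subunit processome factors, and both were listed at 0 in the mutants.

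Cytosolic ribosomal proteins were lower in all 15 listed cases (17.6% of 85, below the 27.4% of all genes tested). Of the 15, 8 were at 0 in both mutants. Among all 2990 listed rows 2912 were lower and 2540 at 0 in both mutants. The direction is therefore not read as a result about this class. Large subunit genes made up the 4 with values in every library. For rpl6 (ENSDARG00000058451) FPKM was 449.7, 390.4 and 451 in wild type and 268 and 282 in the mutants, 0.639 of the wild type mean (q = 0.0298 in the authors' deposited table). For rpl31 (ENSDARG00000053365) it was 48.9, 52.8 and 66.9 against 9.94 and 18.6, 0.253 of the wild type mean (q = 0.0449 in the authors' deposited table). For rpl10a (ENSDARG00000042905) it was 37.0, 28.0 and 35.9 against 0.412 and 1.52, a log2 difference of -4.19 ± 0.35 (SE, q = 0.0134 in the authors' deposited table). The fourth was rpl35a, at 7.88, 9.78 and 7.91 FPKM in wild type and 0.0806 and 1.44 in the mutants (q = 0.0430 in the authors' deposited table). The call of rpl6 was lost when mutant replicate 1 or 2 was left out, under limma over the listed rows. The values of rpl10a and rpl35a came near 0 in the mutants and those of rpl6 did not, although their products are used in equal number in a ribosome. In wild type, too, the mean level of the 15 genes ran from 3.04 FPKM for rps27a to 430.3 for rpl6.

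A single mutant library was at 0 in 3 cytosolic genes. The large subunit gene rpl37 was at 97.1, 139.7 and 174 FPKM in wild type and at 0 and 1.92 in the mutants, the widest gap in FPKM among members that reached 0 in a mutant. For rpl18 the values were 5.85, 7.14 and 8.52 against 0.644 and 0, and for the small subunit gene rps3a 6.73, 10.4 and 12.7 against 0.662 and 0. Among the 8 at 0 in both mutants were rpl32, at 28.1, 29.0 and 14.4 FPKM in wild type, rps26 at 12.5, 22.2 and 17.8 and rpl19 at 8.57, 12.4 and 17.9. Ribosomal proteins are needed in every cell, so zeros in these genes are given as listed and not read as loss of expression.

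Mitochondrial ribosomal proteins were the class with the largest share listed lower, 22 of 75 (29.3%), which is near the 27.4% of all genes tested. Of the 22, 21 were at 0 in both mutants, 15 of them for the large and 6 for the small subunit. The highest in wild type were mrpl57 at 8.47, 6.17 and 9.89 FPKM and mrps21 at 4.64, 9.91 and 9.86. They were followed by mrps7 at 8.23, 6.52 and 5.09 and mrpl12 at 4.8, 3.68 and 5.82. The single gene with a mutant value above 0 was mrpl2, at 12, 8.19 and 8.99 FPKM in wild type and 0 and 0.427 in the mutants.

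Genes of the initiation class were lower in 12 of the 13 listed cases (18.8% of 64, below the 27.4% of all genes tested). The 12 include eif4ebp3l, which is in the class by its name and is named for a binding protein of eIF4E, as eif4ebp2 is. Of the 12, 11 were at 0 in both mutants. Lower was the prevailing direction among all 2990 listed rows too, with 2540 of them at 0 in both mutants. The gene eif1axb, for a factor in scanning to the start codon, was at 19.6, 12.6 and 7.90 FPKM in wild type. The gene eif6, for a factor that keeps the subunits apart, was at 8.57, 6.23 and 3.69, and eif2b4, for a subunit of the exchange factor of eIF2, at 4.33, 4.38 and 8.39. The fourth by level was eif2a, which can bring the first tRNA to the ribosome, at 7.80, 4.76 and 4.29 FPKM. The eIF3 subunit gene eif3d was at 13.4, 11.3 and 13.4 FPKM in wild type and 0.389 and 0 in the mutants (q = 0.00866 in the authors' deposited table). Of the elongation genes, eef1da fell from 23.7, 36.6 and 38.9 FPKM to 0.768 and 2.82 (q = 0.0269 in the authors' deposited table). Its product and that of eef1g belong to the same exchange complex, and the genes moved in opposite directions. The elongation class also held eef1e1, for a protein bound to tRNA synthetases, at 5.23, 3.06 and 3.48 FPKM in wild type and 0 in both mutants.

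**Figure D3:**
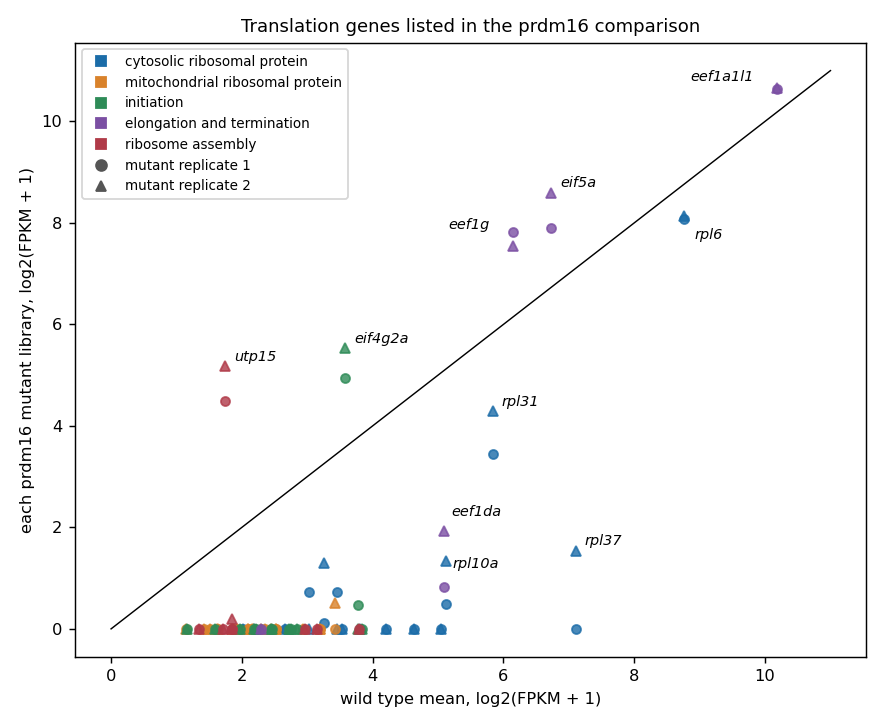
The 63 members of the prdm16 table, with the wild type mean on the horizontal and each mutant library on the vertical axis, both as log2(FPKM + 1), circles for mutant replicate 1, triangles for replicate 2 and colours for the class. The line marks equal levels: eef1a1l1, eif5a, eef1g, eif4g2a and utp15 lie above it in both mutants, and 50 members lie at 0 in each mutant library. Relative to the median of the 128 rows above 0 in every library, eef1a1l1 turned lower.

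Wild type replicate 1 had the highest wild type value in 30 of the 58 lower members (51.7%), close to its share in all 2912 lower rows (50.8%). It is also the 1 wild type library whose label holds the word cleaned, as the labels of both mutants do. With that library as the only wild type one, all 63 members, 5 higher and 58 lower, kept their direction. This follows from their groups not overlapping. The log2 difference was then 3.05 for utp15, 1.56 for eif5a, 1.42 for eif4g2a and 0.40 for eef1a1l1. A lone wild type library has no spread of its own, so no count of calls is given. Of the 48 markers of other cell types, 0 were listed higher and 2 lower, gap43 of neurons (12 to 17.5 FPKM in wild type) and hbbe1.1 of blood (19.3 to 24.0 FPKM), both at 0 in the mutants. Among all genes tested 0.734% were listed higher and 27.4% lower. The 3 listed neural crest markers of 18 summed to 20.5 to 24.7 FPKM in wild type and to 0 and 2.01 in the mutants. Their part in the result was not tested.

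The 9 members listed in both tables could be followed across all 3 genotypes, with the wild type libraries shared by both comparisons. There were 5 that were higher in every prdm3 mutant than in any wild type library and at 0, or for mrpl2 at 0 and 0.427 FPKM, in the prdm16 mutants. They were eif3f, rpl36a, mrps18b, mrpl37 and mrpl2, and of these rpl36a turned lower in the prdm3 mutants relative to the median listed row. These opposite directions are the prevailing ones, with 1432 of 1520 prdm3 rows higher and 2912 of 2990 prdm16 rows lower. The share of the pattern among all 339 genes in both tables is not given here. For eif3f the 3 wild type values were 1.48, 1.06 and 1.19 FPKM, the prdm3 values 3.86 to 4.67 and the prdm16 values 0. For rpl36a (ENSDARG00000058105), a large subunit gene, they were 12.3, 10.1 and 9.29 in wild type, 13.7, 13.6 and 17.2 in prdm3 mutants and 0 in prdm16 mutants. For mrps18b they were 1.62, 0.795 and 1.19, then 3.00 to 3.40, then 0. For mrpl37 (ENSDARG00000062916) and mrpl2 (ENSDARG00000062568) the prdm3 values were 6.36 to 8.21 and 12.8 to 19.5 FPKM, and the wild type values reached 4.73 and 12.

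The remaining 4 went otherwise. In mrpl13 both mutants were lower than wild type, where FPKM was 5.61, 4.47 and 3.27, and the gene was at 0 in the prdm16 mutants. In eef1a1l1 both were higher, with means of 1556 ± 193 (SD, n = 3) for prdm3 and 1605 ± 19.0 (SD, n = 2) for prdm16 against 1159 ± 65.7 (SD, n = 3) in wild type, and both differences turned negative relative to the median listed row. In eif4g2a the means were 14.7 ± 1.75 (SD, n = 3), 37.4 ± 11.1 (SD, n = 2) and 11 ± 1.85 (SD, n = 3). The prdm3 table leaves out wild type replicate 1, at 13.1 FPKM, which lies above the lowest prdm3 value of eif4g2a (12.7). In nol8 that library, at 3.63 FPKM, likewise lay within the prdm3 range of 3.61 to 3.95, and the prdm16 mutants were at 0 and 0.149. With it added, 7 of the 9 genes stayed separate between prdm3 mutants and wild type, and eif4g2a and nol8 did not. Separation from wild type replicates 2 and 3 comes with listing, so only replicate 1 could break it. The share among all 339 genes in both tables is not given, so nothing is read from this count.

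**Figure D4:**
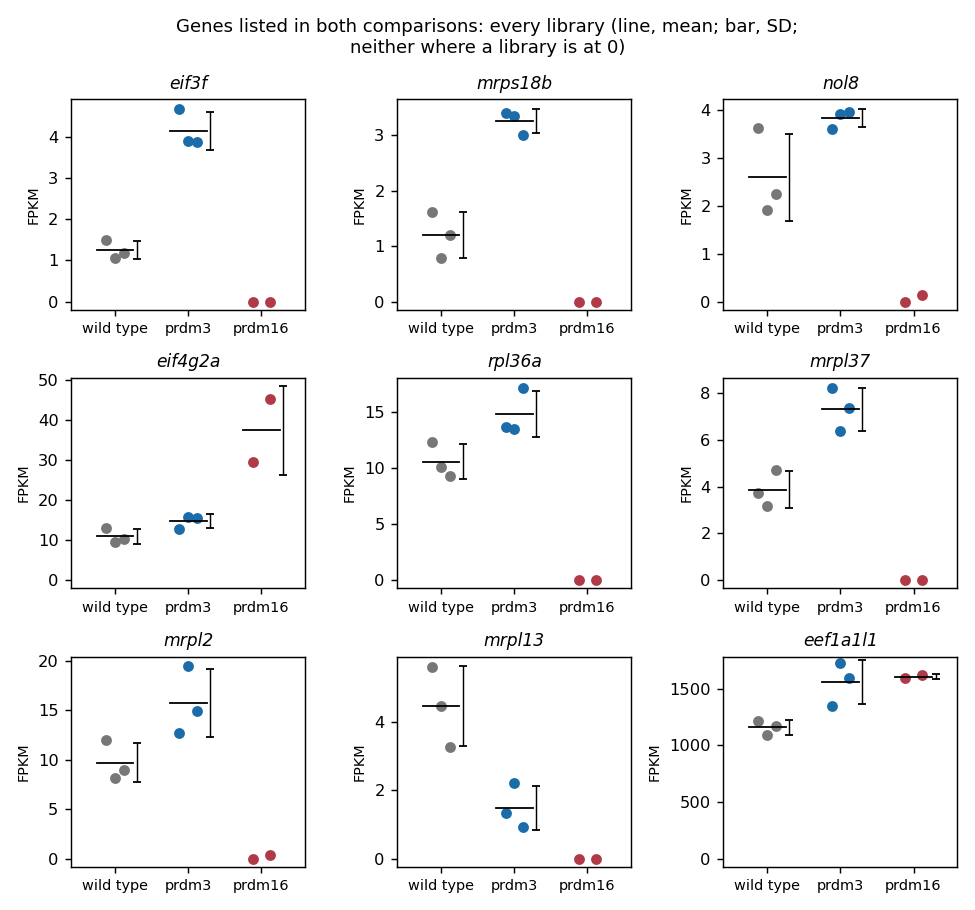
FPKM (vertical axis from 0) of the 9 genes listed in both tables, each point a library: 3 wild type, 3 prdm3 mutant and 2 prdm16 mutant, with the mean as a line and the SD as a bar where no library of the group is at 0. In 5 genes (eif3f, mrps18b, rpl36a, mrpl37, mrpl2) every prdm3 point is above and every prdm16 point below the wild type points, and relative to the median listed row rpl36a turned lower in the prdm3 mutants.

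Genes outside the name rule that serve the same process were taken from 7 lists. The lists were chosen with earlier results of these data known, so their shares are no independent evidence. As for the members, unexpressed genes count in the lists and classes but not among the genes tested. Their shares and the background therefore have unlike denominators. Of 104 other assembly and nucleolar factors, 30 were listed higher in the prdm3 table (28.8%, against 12.7% of all genes tested) and 0 lower, and 11 of the 30 turned lower relative to the median listed row. Their median fold was 1.90, and 0 of the 30 had a q below 0.05 in the authors' deposited table. Summed over the 30 genes, FPKM was 216 and 218 in wild type and 326 to 352 in the mutants. By p the first were urb2, which acts early in large subunit assembly, at 1.45 and 1.60 FPKM in wild type and 3.80, 3.63 and 3.90 in the mutants, and exosc3, an exosome subunit, at 1.14 and 1.20 against 2.23, 2.39 and 2.04. The third was mybbp1a, a nucleolar protein gene, at 5.43 and 5.54 against 8.42, 9.71 and 9.11. Chosen after its values were seen, fbl, for the methyltransferase that works with Nop56 and Nop58, was at 12.9 and 16.1 FPKM against 27.4, 23.4 and 22.4. In the prdm16 comparison 20 of the 104 were listed lower (19.2%, below the 27.4% of all genes tested) and 16 of them at 0 in both mutants. Led by p, these were krr1, sbds and wdr18, with wild type levels of 2.98 to 3.34, 4.27 to 5.19 and 5.43 to 7.19 FPKM.

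RNA polymerase I and III genes, which transcribe ribosomal and transfer RNA, had 1 of 41 listed higher in the prdm3 table (2.44%, against 12.7% of all genes tested). This was gtf3aa, at 1.04 and 0.830 FPKM against 3.89, 3.95 and 2.12. The prdm16 table listed 5 of these 41 lower (12.2%, below the 27.4% of all genes tested), all at 0 in both mutants. Of 54 other translation and mRNA-binding genes, 10 were listed higher in the prdm3 table (18.5%, against 12.7% of all genes tested), although 7 of the 10 turned lower relative to the median listed row. They included pabpn1 at 26.6 and 24.9 FPKM against 41.0, 37.2 and 35.4. In the prdm16 comparison 7 of the 54 were lower (13.0%, below the 27.4% of all genes tested). The 1 that rose was lin28a (1.85%, against 0.734%), whose product binds mRNA and the let-7 precursor. Its FPKM was 18.3, 9.53 and 13.5 in wild type, 198 and 331 in the prdm16 mutants (q = 0.0173 in the authors' deposited table) and 28.3, 49.2 and 29.6 in the prdm3 mutants. It was chosen after its values were seen, and no other gene of the list was listed higher in both tables.

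Of 23 aminoacyl-tRNA synthetase and related genes, 3 were listed higher in the prdm3 table (13.0%, near the 12.7% of all genes tested). They were kars, cars and larsb, and 1 of the 3 turned lower relative to the median listed row. The prdm16 table listed 7 lower (30.4%, near the 27.4% of all genes tested), 6 of them at 0 in both mutants. For kars, the lysyl-tRNA synthetase gene, FPKM was 3.52 and 4.95 in wild type and 9.79, 10.9 and 10.6 in the prdm3 mutants. Both cars and larsb were at 0 in the prdm16 mutants. Of 33 mitochondrial translation factors, 0 were listed in the prdm3 table and 4 lower in the prdm16 table (12.1%, below the 27.4% of all genes tested). In the list of 29 genes named for mTOR, MYC and translation control kinases, 4 were listed higher in the prdm3 table. Their share of 13.8% was near the 12.7% of all genes tested, and all 4 turned lower relative to the median listed row. The first, mycn, was at 17.9 and 17.1 FPKM against 29.3, 31.5 and 27.0. The prdm16 table listed 4 others at 0 (13.8%, below the 27.4% listed lower of all genes tested), among them myca at 13.0, 6.58 and 6.22 FPKM in wild type. Of 23 stress and p53 response genes, only sesn1 was listed higher in the prdm3 table (4.35%, below the 12.7% of all genes tested), at 3.97 and 4.65 FPKM against 7.75, 8.35 and 6.78. In the prdm16 comparison 4 of the 23 were listed at 0 in both mutants (17.4%, below the 27.4% listed lower of all genes tested). Among them was baxa, a cell death gene, at 6.90, 6.85 and 6.97 FPKM in wild type.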

How the data were processed

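RNA was measured in 9 libraries of sorted cells, of which 8 have values in the tables used, and prdm16 mutant replicate 3 is not analysed here. TopHat2 2.1.1, Cufflinks and the build danRer11 are named, without roles, in the submitters' processing notes. The authors deposited a table per mutant. Its library values carry no unit name and were taken as FPKM made by the authors with Cufflinks. The authors' deposited p-value and q-value were the test, and their deposited fold score was not printed. In R 4.3.3, log2(FPKM + 1) values tested with equal variances and 2 sides returned the deposited p to within 1% for every one of the 1520 and 2990 rows. From the relation of p to q, 11242 and 10623 genes had been tested. Rows were limited by the authors to p below 0.05 for prdm3 and to q below 0.05 for prdm16, so no model over all genes could be fitted. The planned limma test was run over the listed rows with limma 3.58.1 as an alternative, and the code was tested on simulated data. An exact permutation of 2 against 3 libraries has 10 arrangements and cannot give a p under 0.1.

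Wild type replicates 1 and 2 are labelled for prdm3 and replicate 3 for prdm16. The word cleaned in some labels is not explained in the sources used here. Wild type values were equal within 0.01 FPKM in 338 of 339 shared genes. Classes and denominators came from RefSeq symbols, of another build, so no coordinates are given, and no sequence of the genes was used here. ATAC peaks, 8 libraries, are not analysed here.

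Members and lists were chosen with earlier results of these data known. Named genes are, per class and direction, the 4 with the smallest p (prdm3), members above 0 in a prdm16 mutant, the 4 per class at 0 with the highest wild type mean, members of both tables, and up to 3 per other list by p. A gene that meets the rule is not reported here. Beyond these, eif5, eif4h, eif4ebp2, nop56, nop2 and other genes were named after their values were seen.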

Additional observations from a re-analysis of the deposited data

Results flagged for a closer look

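There were 5 members with values above every wild type library in all 3 prdm3 mutants and below every wild type library in both prdm16 mutants, where the low values are listed zeros that can be failed estimates. Most rows went these ways, 1432 of 1520 higher for prdm3 and 2912 of 2990 lower for prdm16, and listed groups seldom overlap by selection. The share of the pattern among all 339 genes in both tables is not given, so it is not read as particular to these members. The difference between the mutants was not tested, and the wild type libraries are shared. The lowest prdm3 mutant value was 3.86 FPKM for eif3f, 3.00 for mrps18b, 13.6 for rpl36a, 6.36 for mrpl37 and 12.8 for mrpl2. The highest wild type values were 1.48, 1.62, 12.3, 4.73 and 12 FPKM in the same order. In the prdm16 mutants 4 of them were listed at 0 in both libraries, as were 2540 of all 2990 rows, and mrpl2 was at 0 and 0.427 FPKM. Groups of 2 and 3 libraries are too small for a test of single outlying libraries.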

How the results depend on the processing

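For the prdm3 table, values relative to the median listed row left 14 members called, 3 higher and 11 lower, and 6 assembly factors outside the name rule. That median is drawn from rows above 0 in every library and selected by the same contrast, 1424 of 1487 of them higher. These losses and turns are therefore partly set in advance. On that scale the log2 difference turned to -0.069 for nop58, -0.24 for rpl7l1, -0.30 for eif4g1a, -0.54 for rpl3, -0.0065 for bop1, -0.46 for eef2b, -0.26 for eif3ha, -0.44 for eif3s10, -0.47 for nop56, -0.20 for eif4g2a, -0.16 for rpl36a, -0.25 for eif2s3, -0.17 for nol10, -0.38 for eif3c and -0.32 for eef1a1l1. Rows with a higher mean of 5 FPKM or more held 1 lower member and 15 assembly factors. Members at q below 0.05 numbered 1 by the authors' test and 28 by limma over the listed rows, whose spread is estimated from rows already selected. By limma, leaving out 1 library (a lone wild type library is assumed to vary like the mutants) gave 28 to 33 members called, 26 to 31 higher, 1 to 2 lower, 25 to 30 assembly factors and, against 28 with all libraries, 0 to 25 members at q below 0.05, with 0 without wild type replicate 2 or 3. The lower count was 1 without wild type replicate 2. Every such fit called 24 of the 36 members, and calls lost, 3 by limma with all libraries, numbered 6 and 8 without wild type replicates 2 and 3, and 3, 5 and 3 without mutant replicates 1, 2 and 3.

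For the prdm16 table, a pseudocount of 5 gave 37 members called, 3 higher and 34 lower. Without rows at 0 in every library of a group 16 were left, 11 lower, and 4 assembly factors, and without rows at 0 in any library 10, 5 lower, and 0 assembly factors. Rows with a higher mean of 5 FPKM or more held 31 members, 26 lower, and 4 assembly factors. Relative to the median of the 128 rows above 0 in every library, 1 member kept its call as higher, and eef1a1l1 became -0.56. Libraries labelled cleaned left 1 wild type library, assumed to vary like the 2 mutants, so no count of calls is given. In them the log2 difference was 3.05 for utp15 and -5.84 for rpl37. By limma, leaving out 1 wild type library gave 63 members, 5 higher and 58 lower. These rows had been selected by the same contrast, and 47 of the 63 members were at 0 in both mutants. The calls are therefore largely set in advance and are no evidence of stability. Leaving out a mutant library leaves 1 mutant, so no count is given for it. The causes of these shifts were not tested, other than the smaller sets of rows or libraries. The cleaned-only setting, limma for the q count, wild type replicate 1 and the settings of assembly factors were chosen after seeing the data.

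Replicate numbers of the titles showed no pairing of the libraries: correlations of same-numbered deviations were -0.049 and -0.027 in the prdm3 and 0.031 and -0.020 in the prdm16 table. These cannot exclude pairing, since the rows were selected by an unpaired test and 2540 of 2990 prdm16 rows were at 0 in both mutants. With the replicate number as a block 33 and 61 members were called, 31 and 4 higher and 2 and 57 lower, with 27 and 20 assembly factors. The leading numbers of the library names differ from the replicate numbers, and mutant and wild type share only 1 of them in each table, so no block on them was fitted. The planned ATAC settings at promoters were not run. Depth is unknown, so low values near 1 FPKM have no counting error given.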
